A study of Mus musculus with 6 samples.

Results

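The genes described here encode parts of the transforming growth factor beta (TGF-beta) pathway: the ligand Tgfb1, the receptor chains Tgfbr1 and Tgfbr2 and the accessory receptor Eng, the shared signal transducer Smad4, the target gene Tgfbi, and the nuclear repressors Ski, Skil and Tgif1. They were taken by gene symbol from a table of 55487 genes, in which each of the 9 symbols named 1 row, and all 9 were among the 14478 genes expressed highly enough to be tested. The macrophages were derived from bone marrow of female BALB/c mice of wild-type genotype, 6 to 12 weeks old, and their poly(A) RNA was sequenced. The marrow cells were grown for 8 days in medium of which 20% had been conditioned by L929 fibroblasts, a source of macrophage growth factor, and were then polarized for 24 hours with 10 ng/mL IL-4 and 10 ng/mL IL-13, which drive the alternatively activated or M2 state. The NP group (n = 3) next received 200 µg/mL poly(lactide-co-glycolide) nanoparticles for 24 hours, and the PBS group (n = 3) received the vehicle. The labels name the NP treatment PEMA without explaining it, and do not say whether the libraries came from separate mice or cultures. The p-values therefore measure only the spread between these libraries, which may be technical.

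TGF-beta1 is secreted in a latent form and must be released before it can bind. The released ligand is bound by the type II receptor, encoded by Tgfbr2, which phosphorylates the type I receptor, encoded by Tgfbr1. The type I receptor then phosphorylates Smad2 and Smad3, which enter the nucleus together with Smad4 and act on target genes. Ski, Skil (also called SnoN) and Tgif1 bind Smad complexes and recruit corepressors such as histone deacetylases. In macrophages the pathway is known for restraining inflammatory activation, and alternatively activated macrophages are a known source of TGF-beta1.

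Total counts per library ran from 41974957 to 69450411, with all 3 NP libraries above all 3 PBS libraries. Levels are given as CPM, counts scaled to a common library size over the tested genes with trimmed-mean (TMM) factors, for single genes; sums over marker or receptor gene lists are CPM of the unscaled library totals. PBS 2 and PBS 3 stood apart from the other libraries: olfactory and vomeronasal receptor genes, which macrophages are not known for, summed to 138 and 153 CPM there, against 9.70 to 12.5 CPM in the other 4. The difference reached the pathway lists below, in genes that were not tested. Itgb6 had 0, 1 and 0 counts in NP, against 0, 42 and 42 in PBS 1, PBS 2 and PBS 3. Ltbp1 had 4, 1 and 1 against 0, 28 and 16, and Siglech 0, 1 and 0 against 0, 15 and 19. The library names of NP 2 and PBS 2 carry higher numbers than the rest, and the labels do not say whether that marks a separate batch. Of 8 macrophage markers, all were tested, and their summed level was 9395 to 10532 CPM in NP libraries and 11955 to 12359 CPM in PBS libraries. Markers of T cells, B cells, granulocytes, erythroid cells and megakaryocytes each summed to less than 2 CPM in every library, and those of dendritic cells to 2.59 to 3.14 CPM in NP libraries and 1.65 to 3.34 CPM in PBS libraries. Within these low sums, 2 of 3 tested dendritic cell markers were higher in NP (limma voom): Ccr7 had 27, 25 and 33 counts in NP, against 0, 0 and 1 in PBS (adjusted p = 5.3e-05), and Itgae had 36, 21 and 29 counts in NP, against 9, 3 and 13 in PBS (adjusted p = 0.0130). Of 2 tested granulocyte and progenitor markers, S100a8 was higher in NP (adjusted p = 0.0375, limma voom). No T cell marker was tested. Cd3e had 0, 0 and 0 counts in NP, against 1, 55 and 34 in PBS 1, PBS 2 and PBS 3. Cd3g had 0, 1 and 0 counts in NP, against 0, 12 and 24 in PBS, and Cd3d and Trac had at most 1 count in any library. The part of these markers in the results below was not tested.

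The promoter windows of the 3 genes with the largest changes that passed the test are shown first, as the sequence context of Tgfbi, Tgfbr2 and Tgif1. They are from RefSeq on GRCm38.p6 and hold 250 bases before and 50 bases after an annotated start, 5′ to 3′ on the strand of the gene. Capitals mark matches on either strand to the CAGA box that Smad3 and Smad4 bind (CAGAC), a GC-rich motif of Smad proteins (GGCGC) or a motif of TGIF proteins (TGACAG). Tgfbi lies on the plus strand at chr13:56609336-56609635, Tgfbr2 on the minus strand at chr9:116175314-116175613, and the Tgif1 window on the minus strand at chr17:70851161-70851460.
Tgfbi: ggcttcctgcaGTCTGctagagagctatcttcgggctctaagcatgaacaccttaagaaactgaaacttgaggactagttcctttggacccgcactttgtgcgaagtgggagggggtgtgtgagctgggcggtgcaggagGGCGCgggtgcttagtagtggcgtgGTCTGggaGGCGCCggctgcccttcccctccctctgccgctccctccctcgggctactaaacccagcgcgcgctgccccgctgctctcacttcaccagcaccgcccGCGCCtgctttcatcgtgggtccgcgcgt
Tgfbr2: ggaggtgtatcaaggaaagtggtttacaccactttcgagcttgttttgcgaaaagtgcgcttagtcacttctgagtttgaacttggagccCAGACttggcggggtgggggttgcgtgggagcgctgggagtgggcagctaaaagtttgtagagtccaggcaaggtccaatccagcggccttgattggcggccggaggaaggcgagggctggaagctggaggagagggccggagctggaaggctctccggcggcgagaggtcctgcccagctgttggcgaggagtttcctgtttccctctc
Tgif1: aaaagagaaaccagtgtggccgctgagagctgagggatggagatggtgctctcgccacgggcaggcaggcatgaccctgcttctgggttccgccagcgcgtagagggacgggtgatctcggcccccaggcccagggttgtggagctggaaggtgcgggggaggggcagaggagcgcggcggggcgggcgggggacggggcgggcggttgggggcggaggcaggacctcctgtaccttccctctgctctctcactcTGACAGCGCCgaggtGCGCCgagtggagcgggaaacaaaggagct

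The Tgfbi window held 2 CAGA boxes and 4 copies of the GC-rich motif, 2 of which overlap on opposite strands in the marked stretch GGCGCC. The Tgfbr2 window held 1 CAGA box. The printed Tgif1 window, 1 of 5, held 1 TGIF motif and 2 copies of the GC-rich motif, 1 of which overlaps the TGIF motif. It held no CAGA box, whereas the Tgif1 windows that start at 70849741, 70851685 and 70853483 held 1, 2 and 1. RefSeq windows matched 7 of the 9 genes, with 12 windows in all because Tgif1 has 5 and Tgfbr1 has 2. A CAGA box stood in 7 of the 12 windows and in 49.6% of all 32851 windows of the same length, and the GC-rich motif in 7 of 12 and in 36.9% of all. For each of these motifs the 7 windows belonged to 5 genes. The windows with the GC-rich motif held 52.0% to 85.3% G and C, against a median of 52.7% over all windows. The TGIF motif stood in 2 of the 12, both of Tgif1, and in 19.2% of all windows. The palindromic Smad box GTCTAGAC, present in 0.213% of all windows, and the AP-1 site TGANTCA, present in 7.81%, matched none of the 12. These matches describe letters in the windows and are not measured binding sites.

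In NP macrophages 4 of the 9 genes fell and 1 rose. Tgfbi and Tgfbr2 fell by about the same proportion, Ski and Eng fell by smaller amounts, and Tgif1 rose, while Tgfb1, Tgfbr1, Smad4 and Skil did not pass the test. The test was limma voom over all 14478 genes with Benjamini-Hochberg adjustment at 0.05. Of all tested genes 41.2% passed it, 19.8% higher in NP and 21.4% lower, so a call is common in this comparison and the count of 5 of 9 is not a result about these genes as a set. NP and PBS libraries did not overlap in 6 of the 9 genes, against 53.3% of all tested genes. The median absolute log2 fold change was 0.17 over the 9 genes and 0.16 over all tested genes. Because whole cultures were sequenced, a lower share of expressing cells and less RNA per cell cannot be told apart in any of these values.

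**Figure D1:**
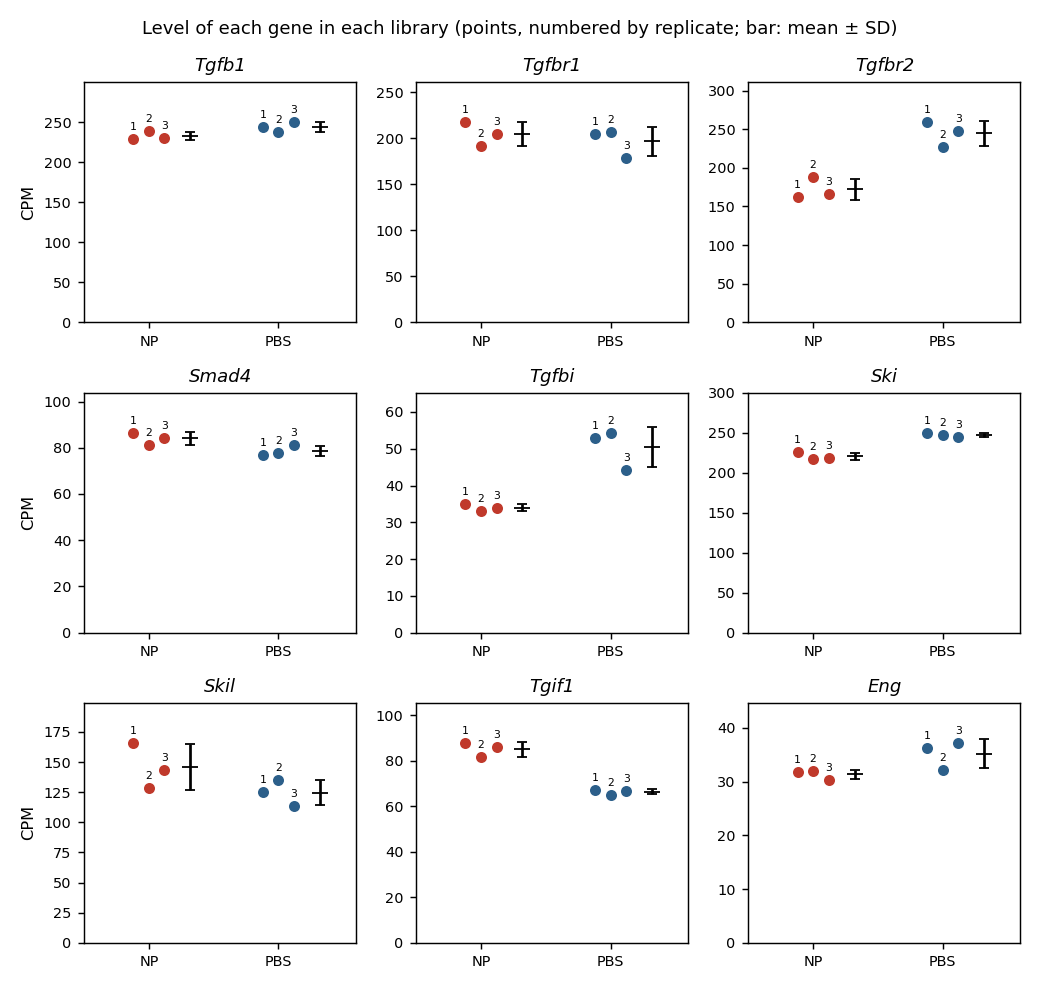
Level of each of the 9 genes in CPM (vertical axes, from 0) in the 3 NP libraries (red, left) and the 3 PBS libraries (blue, right), numbered by replicate, with the mean and SD of each group as a bar. The NP points lie below all PBS points for Tgfbr2, Tgfbi, Ski and Eng and above them for Smad4 and Tgif1, while the groups overlap for Tgfb1, Tgfbr1 and Skil.

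Tgfb1 (ENSMUSG00000002603, chr7:25687002-25705077, plus strand), the ligand, had 229, 239 and 231 CPM in NP 1, NP 2 and NP 3, against 244, 238 and 249.9 CPM in PBS 1, PBS 2 and PBS 3. The groups overlapped through NP 2 and PBS 2. The log2 fold change was -0.07 (SE 0.03, 95% interval -0.14 to 0.01) and did not pass the test (adjusted p = 0.127, limma voom). Per kilobase of exon its level was the highest of the 9 genes, at 46.2 ± 1.02 CPM per kb in NP and 48.4 ± 1.18 in PBS (SD, n = 3 each). It passed in 2 of 16 alternative settings. With sample quality weights the log2 fold change was -0.07 and the adjusted p from voom was 0.0453. With library totals in place of TMM factors, a setting that also moved the median of all tested genes to -0.04, the log2 fold change was -0.10 and the adjusted p from voom was 0.0261.

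Of the 2 chains of the signalling receptor, Tgfbr2 fell and Tgfbr1 did not pass the test. Tgfbr2 (ENSMUSG00000032440, chr9:116084293-116175360, minus strand), whose promoter window is printed above, had 162, 188 and 166 CPM in the NP libraries, against 259, 227 and 248 CPM in the PBS libraries. Every NP library was below every PBS library, and the highest NP value and the lowest PBS value were those of NP 2 and PBS 2. The gene fell by 0.51 on the log2 scale (SE 0.06, 95% interval -0.65 to -0.37), a fold of 0.703 (adjusted p = 0.000233, limma voom). Of all tested genes, 15.4% changed by a larger absolute amount. Between NP 2 and PBS 2 alone the log2 difference was -0.28, and among the other 4 libraries it was -0.62.

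Tgfbr1 (ENSMUSG00000007613, chr4:47353222-47414931, plus strand), the type I receptor kinase, had 217, 191 and 205 CPM in NP and 204, 206 and 179 CPM in PBS. The groups overlapped, with NP 2 below PBS 1 and PBS 2. The log2 fold change was 0.06 (SE 0.06, 95% interval -0.08 to 0.20; adjusted p = 0.485, limma voom), and its sign was negative without PBS 3 (-0.0060). The interval does not include the change measured for Tgfbr2.

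The log2 ratio of Tgfbr1 to Tgfbr2 counts within a library, which is free of the scaling between libraries, was 0.42, 0.03 and 0.30 in NP 1, NP 2 and NP 3, against -0.34, -0.14 and -0.47 in PBS 1, PBS 2 and PBS 3. All NP ratios were above all PBS ratios. The counts were not divided by gene length, so a log2 ratio of 0 does not mark equal levels of the 2 chains. The mean was 0.25 ± 0.20 in NP and -0.32 ± 0.17 in PBS (SD, n = 3 each), a difference of 0.57. The exact two-sided permutation test gave p = 0.1, the smallest that 3 against 3 libraries allow, and 0.1 after adjustment over the 2 ratios tested, so this design could not pass 0.05.

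Eng (ENSMUSG00000026814, chr2:32646595-32682669, plus strand) encodes endoglin, an accessory receptor best known from endothelial cells. It had 31.8, 31.9 and 30.3 CPM in NP, against 36.2, 32.1 and 37.2 CPM in PBS. The groups were separated by only the small gap between NP 2 and PBS 2. The log2 fold change was -0.17 (SE 0.05, 95% interval -0.29 to -0.04; adjusted p = 0.0344, limma voom). The call was lost in 7 of 16 alternative settings. These included 5 of the 6 fits that left out 1 library, with adjusted p of 0.105 without NP 1, 0.0812 without NP 2, 0.189 without NP 3, 0.161 without PBS 1 and 0.143 without PBS 3. Between NP 2 and PBS 2 alone the log2 difference was -0.01, against -0.24 among the other 4 libraries.

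Exons of Eng overlap those of Fpgs on the opposite strand, and the strand setting of the counting was not stated in any source at hand, so reads from the overlap cannot be assigned with certainty. Fpgs, the enzyme that adds glutamate tails to folate, had a log2 fold change of 0.15 (SE 0.05, adjusted p = 0.0445, limma voom). Of 6 endothelial markers, Tek, Emcn and Cldn5 were below 0.15 CPM in every library, and Cdh5, the junction protein of endothelium, averaged 0.425 CPM in NP libraries and 0.347 in PBS libraries. The summed level of the 6 was 239 to 259 CPM in NP libraries, against 233 to 261 in PBS libraries, on library totals, nearly all of it from Vwf, with a mean of 236 ± 11.4 CPM in NP libraries, against 226 ± 14.9 in PBS libraries (SD, n = 3 each). Of the 6, 3 were tested, and only Kdr, a receptor of vascular growth factor, passed. Kdr rose to 18.2 ± 0.448 CPM in NP libraries, against 16.6 ± 0.252 in PBS libraries (SD, n = 3 each), a log2 fold change of 0.14 (SE 0.05, adjusted p = 0.0369, limma voom). The part of these cells' markers in the Eng result was not tested.

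**Figure D2:**
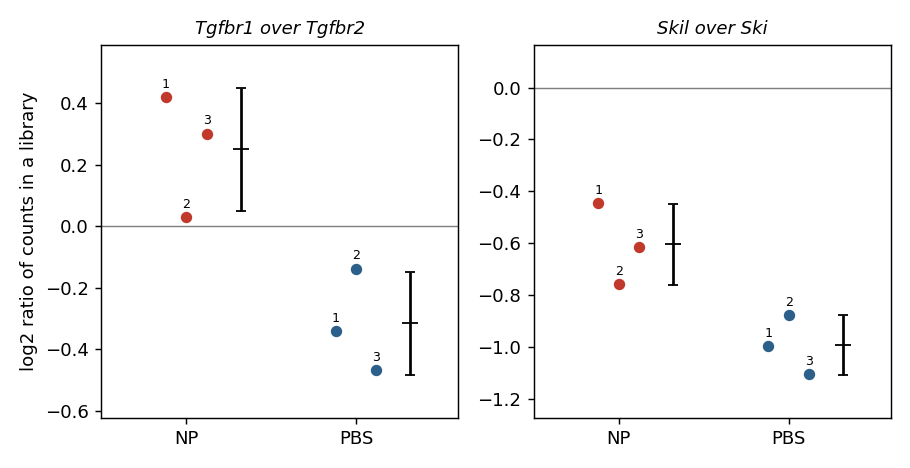
Log2 ratio of counts within a library (vertical axes) of Tgfbr1 over Tgfbr2 (left) and Skil over Ski (right) in 3 NP libraries (red) and 3 PBS libraries (blue), numbered by replicate, with mean and SD as bars. Every NP ratio lies above every PBS ratio in both panels, with NP 2 lowest among NP and PBS 2 highest among PBS.

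Smad4 (ENSMUSG00000024515), the Smad that partners the receptor-activated Smads, had 86.6, 81.3 and 84.2 CPM in NP, against 77.0, 77.9 and 81.1 CPM in PBS. All NP libraries were above all PBS libraries, although NP 2 and PBS 3 nearly met. The log2 fold change of 0.10 (SE 0.04, 95% interval 0.01 to 0.18) did not pass after adjustment (adjusted p = 0.0617, limma voom). It passed in 4 of 16 alternative settings, and the adjusted p ranged from 0.0180 to 0.185 over them.

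Tgfbi (ENSMUSG00000035493, chr13:56609523-56639562, plus strand) encodes a secreted matrix protein named for its induction by TGF-beta. It had 34.98, 33.03 and 33.97 CPM in NP, against 52.9, 54.4 and 44.2 CPM in PBS. The NP libraries lay close together and all below PBS 3, the lowest PBS library. The gene fell by 0.56 on the log2 scale (SE 0.07, 95% interval -0.72 to -0.40), a fold of 0.677 (adjusted p = 3.00e-04, limma voom). This was the largest change among the 9 genes, and 13.3% of all tested genes changed by more. Unlike Tgfbr2, its log2 difference was larger between NP 2 and PBS 2, at -0.72, than among the other 4 libraries, at -0.49; whether the genes differ in this was not tested.

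Markers of fibroblasts, which also make matrix proteins, had low levels. The 8 markers summed to 2.26 to 2.75 CPM in NP libraries and 2.702 to 3.43 CPM in PBS libraries, below the level of Tgfbi itself. Of 4 tested, 1 fell and 1 rose. Pdgfrb had 78, 95 and 79 counts in NP, against 147, 76 and 98 in PBS, a log2 fold change of -0.66 (SE 0.19, adjusted p = 0.0188, limma voom), the same direction as Tgfbi. Pdgfra had 18, 12 and 22 counts in NP, against 3, 5 and 5 in PBS, a log2 fold change of 1.57 (SE 0.41, adjusted p = 0.0128, limma voom). Their part in the Tgfbi result was not tested.

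Among the repressors Tgif1 rose and Ski fell. Tgif1 (ENSMUSG00000047407, chr17:70844205-70853546, minus strand), a homeodomain protein that binds Smad2 and recruits histone deacetylases, had 87.8, 81.4 and 85.8 CPM in NP, against 67.2, 65.1 and 66.7 CPM in PBS. All NP libraries were above all PBS libraries, by a gap wider than the range within each group. The gene rose by 0.36 on the log2 scale (SE 0.04, 95% interval 0.27 to 0.44), a fold of 1.28 (adjusted p = 9.53e-05, limma voom), the smallest adjusted p of the 9 genes. Its log2 difference was 0.32 between NP 2 and PBS 2 and 0.38 among the other 4 libraries.

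Ski (ENSMUSG00000029050, chr4:155154075-155222592, minus strand), the founding member of its family and a partner of Smad4, had 226, 217 and 219 CPM in NP, against 250.2, 248 and 245 CPM in PBS. All NP libraries were below all PBS libraries, and the PBS libraries varied by a coefficient of variation of only 1.05%. The gene fell by 0.17 on the log2 scale (SE 0.03, 95% interval -0.24 to -0.10; adjusted p = 0.00179, limma voom). The change was small: 49.0% of all tested genes changed by more.

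Skil (ENSMUSG00000027660, chr3:31095058-31122577, plus strand), the paralog of Ski and itself a target gene induced by TGF-beta, had 166, 128 and 143 CPM in NP, against 125, 135 and 114 CPM in PBS. NP 1 and NP 3 were above every PBS library and NP 2 was below PBS 2. With a coefficient of variation of 13.02% Skil varied most among the NP libraries of the 9 genes, and its log2 fold change of 0.22 (SE 0.09, 95% interval 0.02 to 0.42) did not pass (adjusted p = 0.0742, limma voom). The value depended on single libraries in both directions. Without NP 1 the log2 fold change was 0.13 (adjusted p = 0.248, limma voom) and without PBS 3 it was 0.16 (adjusted p = 0.229, limma voom). Without NP 2 it was 0.32 (adjusted p = 0.0198, limma voom), and without both NP 2 and PBS 2 it was 0.37 (adjusted p = 0.00244, limma voom). Between NP 2 and PBS 2 alone the log2 difference was -0.07.

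The log2 ratio of Skil to Ski counts was -0.44, -0.76 and -0.61 in the NP libraries, against -0.997, -0.876 and -1.105 in the PBS libraries. Skil counts were below Ski counts in every library, and less so in every NP library than in any PBS library. The mean was -0.60 ± 0.16 in NP and -0.99 ± 0.11 in PBS (SD, n = 3 each), a difference of 0.39 with an exact two-sided permutation p of 0.1, again the smallest possible.

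**Figure D3:**
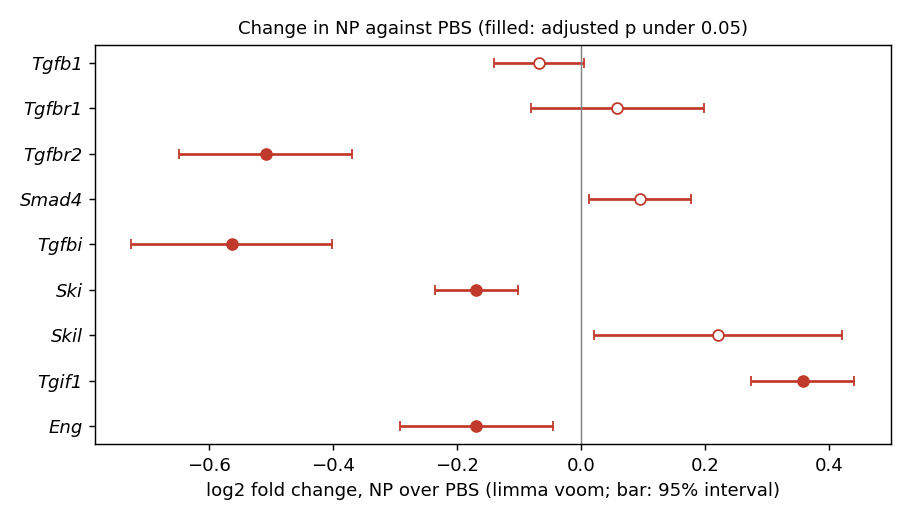
Log2 fold change of each gene in NP over PBS (horizontal axis) with its 95% interval from limma voom, filled where the adjusted p was under 0.05. Tgfbi and Tgfbr2 lie lowest at -0.56 and -0.51, Tgif1 highest at 0.36, and the intervals of Tgfb1 and Tgfbr1 include 0.

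Per kilobase of exon, the order of levels in NP macrophages was Tgfb1, Ski, Tgfbr1, Smad4, Tgfbr2, Tgif1, Skil, Tgfbi and Eng, from 46.2 ± 1.02 down to 7.75 ± 0.216 CPM per kb (SD, n = 3). In NP, Smad4 at 22.6 ± 0.717 and Tgfbr2 at 21.01 ± 1.66 CPM per kb were within their spread of each other, as were Tgif1 at 15.1 ± 0.581 and Skil at 15.03 ± 1.96. In PBS, Tgfbr1 at 30.1 ± 2.34 and Tgfbr2 at 29.9 ± 1.98 CPM per kb were nearly equal, and Tgfbi at 13.4 ± 1.46, Skil at 12.9 ± 1.09 and Tgif1 at 11.8 ± 0.199 were close together. In NP the type I chain Tgfbr1 stood at 31.3 ± 1.99 CPM per kb, above Tgfbr2 by more than their spread. Tgfb1 had a higher level per kilobase of exon than either receptor chain in both groups. The length used is that of all annotated exons of a gene merged. It can exceed the length of the expressed transcripts by an amount that differs between genes, so this order is not one of transcript numbers.

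Around the ligand, 9 genes of ligands, latency and processing were tested, of which 1 rose and 3 fell, with a median log2 fold change of -0.14 against -0.0035 over all tested genes. Here and in the lists below, the counts stand beside 19.8% of all tested genes higher in NP and 21.4% lower. No list was tested as a set. The genes that anchor latent TGF-beta1 at the cell surface moved in opposite directions. Lrrc32 (GARP) rose to 23.0, 27.9 and 23.9 CPM in NP, against 16.2, 13.5 and 17.8 CPM in PBS, a log2 fold change of 0.64 (SE 0.10, adjusted p = 8.88e-04, limma voom). Nrros, the anchor of myeloid cells, fell to 113, 146 and 129 CPM in NP, against 179.9, 164 and 183 CPM in PBS, a log2 fold change of -0.45 (SE 0.08, adjusted p = 0.00205, limma voom). Neither gene's groups overlapped.

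Furin, the protease that cleaves the TGF-beta precursor, fell by 0.31 on the log2 scale (SE 0.07, adjusted p = 0.00630, limma voom); the call was lost without NP 3, and likewise without both PBS 2 and PBS 3, with adjusted p of up to 0.152. The fit without both leaves PBS 1 alone, so its spread comes from the NP libraries and PBS 1 is assumed to vary like them. Tgfb3 averaged 0.973 ± 0.0230 CPM in NP and 1.74 ± 0.633 CPM in PBS (SD, n = 3 each), with a log2 fold change of -0.73 (SE 0.25, adjusted p = 0.0450, limma voom). Its call was lost in 8 of 16 settings, including the fits without PBS 2 and without PBS 3, which had its highest values. PBS 2 and PBS 3 are also the libraries that stood apart in receptor genes, and the part of this in the Tgfb3 result was not tested. Tgfb2 was scarcely expressed, with 0.288 ± 0.0708 CPM in NP libraries, against 0.282 ± 0.138 in PBS libraries (SD, n = 3 each; adjusted p = 0.740, limma voom).

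Of 8 tested genes that release latent TGF-beta, 2 rose and 1 fell (median log2 fold change 0.17). Itgb3, which forms the integrin alpha-v beta-3, was the largest increase, at 219.98, 127 and 166 CPM in NP, against 59.9, 64.1 and 74.7 CPM in PBS. All NP libraries were above all PBS libraries and NP 2 was again the NP library nearest to PBS. The log2 fold change was 1.34 (SE 0.17, adjusted p = 2.84e-04, limma voom). Mmp14, a membrane-bound matrix protease, rose by 0.80 on the log2 scale (SE 0.11, adjusted p = 3.38e-04) to 3.92 ± 0.151 CPM in NP, against 2.25 ± 0.148 CPM in PBS (SD, n = 3 each), and Itgb5, the other integrin beta chain in this list to pass, fell by 0.17 (SE 0.03, adjusted p = 0.00384, limma voom).

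Among 5 receptors and coreceptors 1 rose and 2 fell, and the genes that fell were Tgfbr2 and Eng (median 0.06). Acvrl1, an alternative type I receptor also known as ALK1, rose to 49.2, 51.1 and 50.5 CPM in NP, against 43.9, 41.3 and 39.4 CPM in PBS, with no overlap. Its log2 fold change was 0.28 (SE 0.04, adjusted p = 9.77e-04, limma voom), and without both PBS 2 and PBS 3 its adjusted p was 0.0515. Tgfbr3 (betaglycan), a coreceptor, averaged 1.37 ± 0.151 CPM in NP and 1.03 ± 0.0962 CPM in PBS (SD, n = 3 each; log2 fold change 0.39, SE 0.16, adjusted p = 0.0887, limma voom).

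Smad2 and Smad3, named above as the Smads that the type I receptor Tgfbr1 phosphorylates, did not pass the test. Smad2 had a log2 fold change of 0.01 (95% interval -0.07 to 0.09, adjusted p = 0.873) and Smad3 one of 0.07 (95% interval -0.12 to 0.26, adjusted p = 0.556), both from limma voom. Of 7 tested Smads only Smad7 passed (median 0.07). Smad7, the inhibitory Smad that TGF-beta itself induces, rose to 31.1, 25.3 and 27.4 CPM in NP, against 18.9, 19.4 and 19.1 CPM in PBS, a log2 fold change of 0.54 (SE 0.08, adjusted p = 5.04e-04, limma voom). All NP libraries were above all PBS libraries.

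Of 6 tested Smad partners and positive regulators, only Zfyve9 (SARA), which presents Smads to the receptor, passed; it rose by 0.52 on the log2 scale (SE 0.11, adjusted p = 0.00438, limma voom; list median 0.05). Among 13 repressors and feedback inhibitors, 4 rose, namely Smad7, Tgif1, Smurf1 and Nedd4l, and 1 fell, namely Ski (median 0.22). Smurf1 and Nedd4l encode ubiquitin ligases that act on the receptor or on Smads, and their log2 fold changes were 0.25 (SE 0.07, adjusted p = 0.0222) and 0.23 (SE 0.04, adjusted p = 0.00187, limma voom). Nedd4l, like Fpgs above, was named after its values were seen. The Smurf1 call was lost in 4 of 16 settings. Of 8 corepressors that Ski and Tgif proteins recruit, 3 fell and none rose (median -0.06). Among those that fell, the histone deacetylase Hdac1 fell by 0.24 (SE 0.03) and Ctbp1 by 0.17 (SE 0.03) on the log2 scale.

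**Figure D4:**
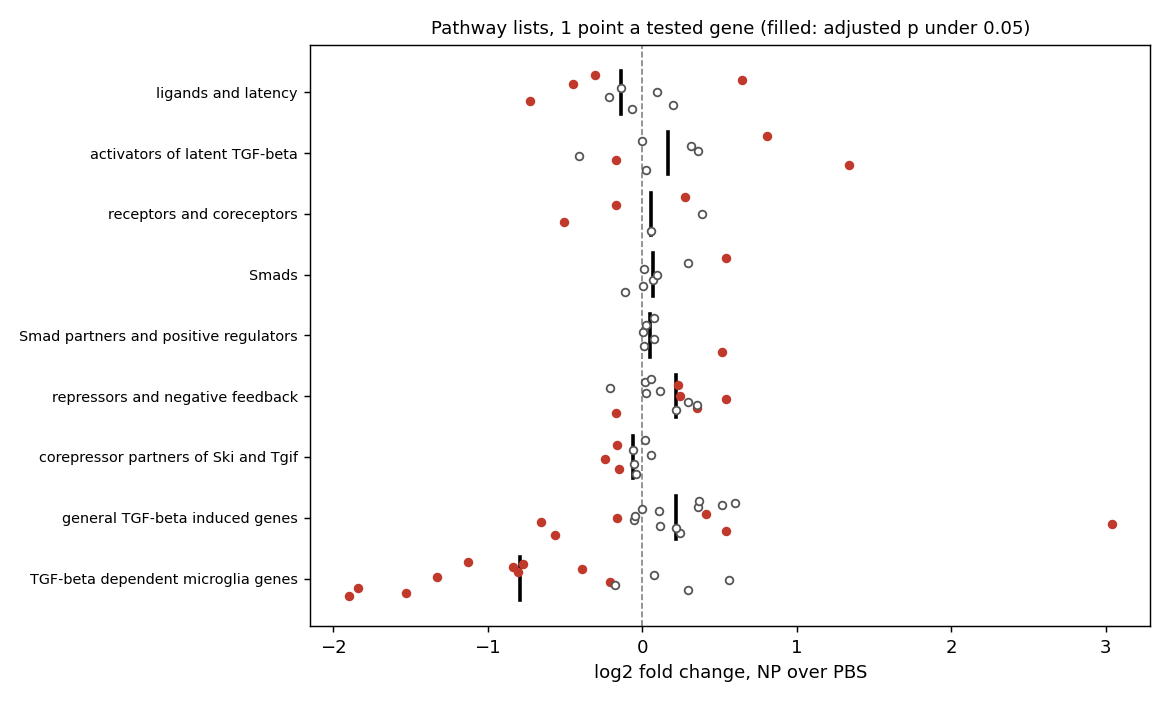
Log2 fold change in NP over PBS (horizontal axis) of each tested gene in 9 pathway lists, filled where the adjusted p from limma voom was under 0.05; black bars mark list medians and the dashed line the median of all tested genes, -0.0035. The list of TGF-beta dependent microglia genes has the lowest median, -0.79, and Ccn2 is the isolated point at 3.04.

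Genes known to be induced by TGF-beta in many cell types included some that rose and some that fell. Of 17 tested, 3 rose and 3 fell (median 0.22), against 19.8% higher and 21.4% lower among all tested genes, so these counts are not a result about the list. Fn1, fibronectin, fell to 302, 377 and 320.1 CPM in NP, against 536, 490.03 and 539 CPM in PBS, a log2 fold change of -0.65 (SE 0.07, adjusted p = 1.61e-04, limma voom). Cdkn1a, the cell cycle inhibitor p21, fell by 0.17 on the log2 scale (SE 0.03, adjusted p = 0.00241). Vegfa, the vascular growth factor, rose by 0.41 (SE 0.05, adjusted p = 1.35e-04, limma voom), with 28.1 ± 0.648 CPM in NP and 21.1 ± 0.879 CPM in PBS (SD, n = 3 each).

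Within this list Tgfbi fell while Smad7 rose. Ccn2 (connective tissue growth factor) had 34, 27 and 11 counts in NP, against 13, 0 and 1 counts in PBS, so its libraries overlapped. Its fitted log2 fold change of 3.04 (SE 0.87, adjusted p = 0.0200, limma voom) rests on these few counts and lost its call in 9 of the 15 settings that tested it.

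Genes whose expression in microglia, the macrophages of the brain, is known to depend on TGF-beta signalling mostly fell. Of 14 tested in these marrow macrophages, 10 fell, none rose and 4 did not pass, with a median log2 fold change of -0.79. Of all tested genes, 21.4% fell. Those that did not pass were Sparc, Tmem119, Adgrg1 and Olfml3, named after their values were seen. Their log2 fold changes were 0.56, 0.30, 0.08 and -0.17 (adjusted p = 0.196, 0.434, 0.833 and 0.315, limma voom). Sall1, Siglech and Slc2a5, also in this list, were not tested. P2ry12, a purine receptor, fell to 0.765, 1.28 and 0.992 CPM in NP, against 3.39, 3.61 and 4.09 CPM in PBS, a log2 fold change of -1.90 (SE 0.18, adjusted p = 6.84e-05, limma voom). Gpr34, a lysophospholipid receptor, fell by 1.84 (SE 0.23, adjusted p = 2.77e-04). P2ry13, another purine receptor, fell by 1.53 (SE 0.37, adjusted p = 0.00884, limma voom), a call that was lost without NP 1, without NP 2, without NP 3 and without both PBS 2 and PBS 3, with adjusted p of up to 0.106.

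These 3 genes had low levels, and P2ry13 the lowest, with 21, 30 and 16 counts in NP and 46, 32 and 83 counts in PBS. General macrophage markers moved with the list. Of 8 of them, 6 fell and 1 rose: Adgre1 (F4/80) averaged 257 ± 9.61 CPM in NP libraries, against 404 ± 8.67 in PBS libraries, and Csf1r, the receptor of macrophage colony-stimulating factor, averaged 514 ± 34.1 CPM in NP libraries, against 775 ± 30.5 in PBS libraries (SD, n = 3 each). Cd68, a lysosomal glycoprotein, rose, with 1794 ± 56.7 CPM in NP and 1632 ± 59.5 CPM in PBS. These 3 markers were named after their values were seen, and Mertk belongs to both lists. The part of these markers in the list's result was not tested.

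Over all 89 pathway genes in the table, 81 were tested, of which 11 rose and 23 fell, with a median log2 fold change of 0.01. That is 34 of 81 against the 41.2% of all tested genes, and 10 of the 23 that fell are in the microglia list.

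**Figure D5:**
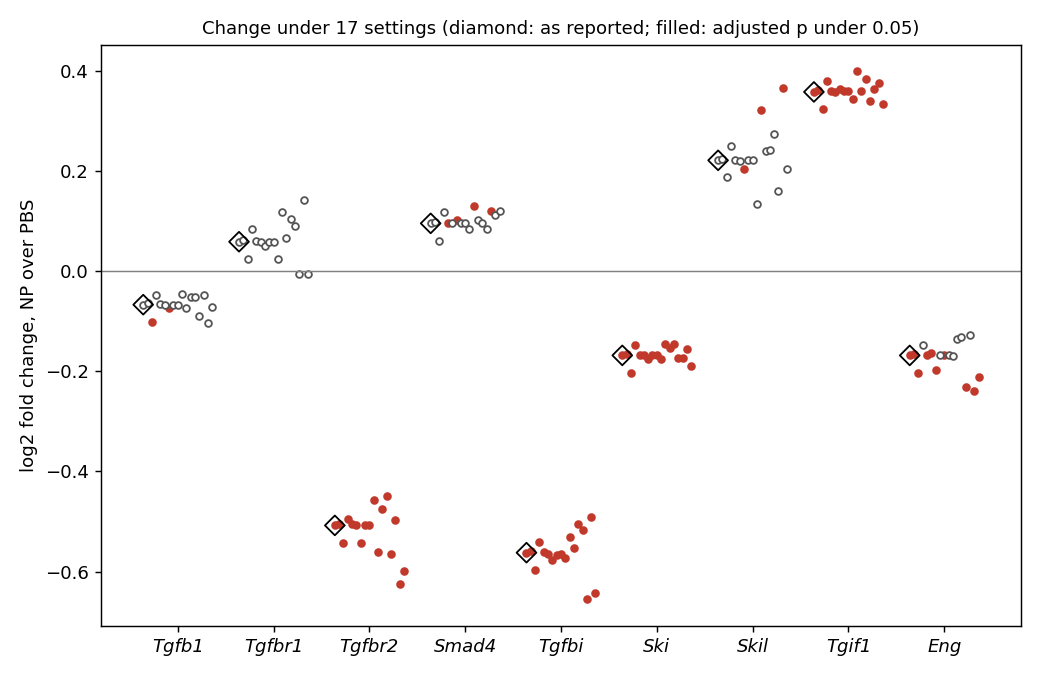
Log2 fold change of each gene in NP over PBS (vertical axis) under 17 settings: the reported fit (diamond) and 16 alternatives, filled where the adjusted p was under 0.05. Tgfbr2, Tgfbi, Ski and Tgif1 are filled under all 17, Eng under 10, and Tgfbr1 under none.

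The genes with the most similar profiles over the 6 libraries were found among 9563 tested genes of at least 5 CPM, by the smallest root-mean-square difference of centred log2 CPM. The 6 libraries share the group difference, so a small distance describes the profile and nothing else. The nearest to Tgfbr2 were Gpx3 (0.0162) and Nemp1 (0.0165), to Tgfbi Pald1 (0.0444) and Rnf180 (0.0619), and to Tgif1 Oga (0.0154) and Braf (0.0154). The nearest to Ski were Cdkn1a (0.00861), itself in the list of induced genes, and Cep120 (0.0141), and to Eng Pitpnc1 (0.0274) and Ap1b1 (0.0294). Among genes that did not pass, Tgfb1 was nearest to Vdac1 (0.00748) and Chd4 (0.00960), Smad4 to Rab6a (0.00889) and Ranbp10 (0.0113), Tgfbr1 to Btbd19 (0.0188) and Sdr39u1 (0.0220), and Skil to Havcr2 (0.0328) and Tapt1 (0.0457).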

How the data were processed

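The authors deposited gene-level expected counts of the 6 libraries in whole numbers, unscaled. The submitters' processing notes give GRCm38 as the build and list RSEM 1.3.3, STAR 2.7.8a, cutadapt 2.3, MultiQC 1.7 and FastQC 0.11.8, without roles. No annotation release or strand setting is given in the sources used here. RSEM divides reads shared by near-identical genes, which adds uncertainty to such genes. Of 55491 rows, 4 reporter constructs with 0 counts were left out. Coordinates, types and exonic lengths came from GENCODE M21 on GRCm38, which matched 55227 of 55487 genes.

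limma 3.58.1 in R 4.3.3 (voom, offset 0.5, group as the only term, 4 residual degrees of freedom) was fitted to 14478 genes with at least 0.171 CPM in 3 libraries and 15 counts in total. TMM factors ran from 0.979 to 1.02. edgeR and DESeq2 were planned as alternatives and not run, because the layout of the table kept its unit from being checked as counts. CPM of genes used TMM-scaled library sizes, and the 3-count floor was 0.0432 to 0.0715 CPM per library; this floor covers counting error only, and the 95% intervals of fold changes cover the spread between libraries. Ratios used counts plus 0.5. Between libraries of one group, chi-square per gene was 5.56 to 18.1, so no library repeated another. All 9 genes were named; in each list, up to 3 genes that rose and 3 that fell with the largest change were named, with Tgfb2, Tgfb3, Tgfbr3, Acvrl1, Smad2, Smad3 and Smad7 in any case, and the 2 nearest profiles of each gene. Marker genes of other cell types were named after their values were seen. A gene that this rule takes is not reported here. The genes and lists were chosen with earlier results of these data known.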

Additional observations from a re-analysis of the deposited data

How the results depend on the processing

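Over 16 alternative settings for each of the 9 genes, 126 of 144 values kept direction and side of the threshold, 7 lost the call, 9 gained one and 2 changed sign. The 7 were all of Eng; besides the fits without 1 library they were no low-count filter and the replicate block. Tgfbr1 changed sign without PBS 3 (-0.0060) and without both PBS 2 and PBS 3 (-0.0067), a fit in which PBS 1 alone is assumed to vary like the NP libraries, and its value ran from -0.0060 to 0.12 when single libraries were left out; the cause was not tested. The count of the 9 genes that rose was 2 with at least 1 CPM in 3 libraries, 3 with sample quality weights, 2 without PBS 2 and NP 2, and 1 to 3 when single libraries were left out; the count that fell was 3 to 5 over all settings. The added genes were among Smad4 and Skil. Leaving out single libraries moved the Tgfbr1 to Tgfbr2 difference between 0.481 and 0.677, the Skil to Ski difference between 0.308 and 0.464, and the pathway genes that rose and fell between 9 and 13 and between 18 and 26. The tested genes that passed were 2972 without both PBS 2 and PBS 3, and those lower 1975 without NP 3. Deviations of same-numbered NP and PBS libraries from their group means had correlations across genes of -0.01, -0.12 and -0.14. Pairs of NP and PBS libraries with unlike numbers had -0.03 to 0.16. With 3 libraries in a group these values cannot decide whether the numbers pair the samples, and the labels do not say. With the replicate block, 1 of the 9 genes rose and 3 fell, and Eng had an adjusted p of 0.0618 from voom. The edgeR and DESeq2 alternatives were not run. Each of the 9 genes had at least 1369 counts in every library, whereas Tgfb2, with 7 to 25 counts, had a 95% interval of -0.76 to 1.15 on the log2 scale.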
